A study of Mus musculus with 8 samples.

Results

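The genes described here are Alas1, Alas2, Alad, Uros, Urod, Cpox, Ppox and Fech, which cover 7 steps of heme synthesis, and Hmox1, which degrades heme. They were chosen by name, as every probe set that the platform annotation gives to exactly 1 of these 9 genes, which found 20 of 34945 single-gene probe sets, for 9 of 18193 genes.

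Heme is an iron-porphyrin ring that cells build in a chain of enzymatic steps starting and ending in the mitochondrion. The entry step, aminolevulinic acid synthase, sets the rate and exists in a housekeeping form, Alas1, which heme itself represses, and an erythroid form, Alas2, made in red cell precursors. Heme oxygenase 1, Hmox1, opens the ring to biliverdin, iron and carbon monoxide, and is induced by heme and oxidants in macrophages and stressed cells.

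RNA came from sorted bone marrow progenitors of female C57BL6 mice of 8 to 10 weeks, of the genotypes wild type and FLT3-ITD; the latter is a tandem repeat inside the cytokine receptor Flt3 that leaves its kinase active. The sort took lineage negative cells with Sca-1, c-Kit and CD48 and without CD150, a gate for lympho-myeloid multipotent progenitors. There were 4 arrays per genotype, numbered 1, 2, 3 and a further 1 with the tag 037, called replicate 037 here. Whether replicate 037 repeats replicate 1 is not stated; the pair had r = 0.969 (wild type) and 0.953 (FLT3-ITD), within the range of all pairs, 0.948 to 0.981. The labels do not say how the duplication was introduced, how many alleles carry it or whether samples came from separate or pooled mice, and p-values therefore speak only to how far these arrays scatter, possibly for technical reasons. Of the genes behind the gate, Kit and Cd48 lay above the array median on all 8 arrays, as did Flt3, and Slamf1, the CD150 gene, on 0. Cd48 was itself higher in FLT3-ITD, by 1.06 (limma adjusted p = 0.00740), and Kit differed by −0.47 (limma adjusted p = 0.427). Ly6a, the Sca-1 gene, was not analysed here. The lineage genes Cd3e and Itgam also lay above it on 0 arrays. FLT3-ITD replicate 1 correlated least with the other arrays (r from 0.948 to 0.959), and FLT3-ITD replicate 037 had the steepest fall from the 3′ to the 5′ end of the Gapdh control, as degraded RNA gives (2.99 on the log2 scale against 1.82 to 2.29 elsewhere).

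Values are log2 RMA expression values, and a difference is the FLT3-ITD mean less the wild type mean, with its standard error from limma. Each gene is read first from its probe set of highest mean, and was tested if at least 4 arrays read it above their own median, 5.98 to 6.05. That left 8 of the 9 genes, Alas2 falling short with 3 arrays. Of these 8, Hmox1 passed limma at an adjusted p under 0.05 over all 10762 tested genes, of which 0.604% passed, 0.427% higher and 0.177% lower. At an unadjusted p under 0.05 stood 2 of the 8, Alas1 higher and Hmox1 lower, against 9.58% of tested genes (5.74% higher, 3.84% lower). The genotypes did not overlap in the same 2, against 6.22% of tested genes (3.77% higher, 2.44% lower).

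Hmox1, which opens the heme ring, fell in FLT3-ITD. Its single probe set, 1448239_at, read 6.83, 7.10, 6.95 and 6.58 in wild type replicates 1, 2, 3 and 037 and 5.94, 5.81, 5.76 and 5.29 in the same numbers of FLT3-ITD. The genotypes did not overlap, FLT3-ITD being the lower, and replicate 037 was the lowest within each genotype. The means were 6.86 ± 0.22 and 5.70 ± 0.28 (SD, n = 4 each; exact two-sided permutation p = 0.0286, the smallest that 4 against 4 can give). The difference was −1.17 ± 0.18 (SE; limma adjusted p = 0.0282), or 2.24-fold higher in wild type. All 4 wild type values stood above the array median and all 4 FLT3-ITD values below it, so the gene passed the filter through wild type alone. Among all 34945 single-gene probe sets, with no filter, the limma adjusted p was 0.0531, and 0.157% of these probe sets passed. Leaving out wild type replicate 1, 2 or 3 or FLT3-ITD replicate 2 or 3 ended the call, with limma adjusted p of 0.0750, 0.108, 0.123, 0.0766 and 0.0781, while the difference stayed between −1.26 and −1.03 over all 8 omissions. Without FLT3-ITD replicate 037 it was −1.03 (limma adjusted p = 0.0451), and without FLT3-ITD replicates 1 and 037 together −1.08 (limma adjusted p = 0.0920).

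**Figure D1:**
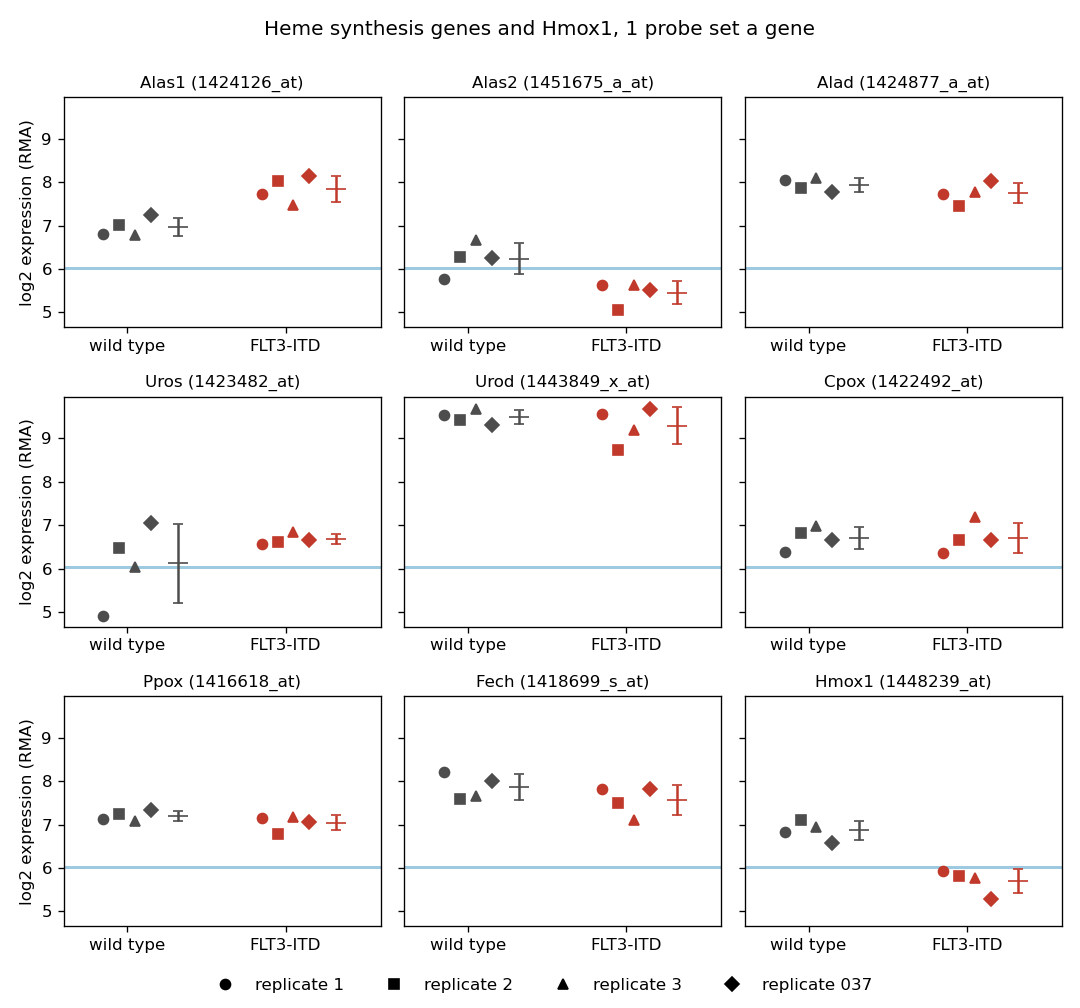
Log2 RMA expression of each of the 9 genes on the 8 arrays, 1 probe set a gene, with the mean and SD of each genotype as a bar beside the points and marker shapes for replicate numbers. The blue band spans the array medians, 5.98 to 6.05. In Hmox1 the wild type points lie above the band and the FLT3-ITD points below it, in Alas1 the FLT3-ITD points lie higher, and in Alas2 they lie lower.

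The other genes of heme breakdown did not pass. Hmox2, the constitutive heme oxygenase, had means of 9.75 ± 0.72 (wild type) and 9.55 ± 0.64 (FLT3-ITD; SD, n = 4 for both), and its difference was −0.20 ± 0.41 (SE; limma adjusted p = 0.923). Blvrb, a biliverdin reductase that is also abundant in red cells, read 6.73, 7.04, 7.24 and 7.18 in wild type and 6.12, 6.69, 6.19 and 6.24 in FLT3-ITD, in the order 1, 2, 3 and 037. Its genotypes did not overlap, and the difference of −0.74 ± 0.17 (SE) did not pass (limma adjusted p = 0.147). Blvra, the main adult biliverdin reductase, differed by 0.30 ± 0.24 (SE; limma adjusted p = 0.762), and by 0.14 to 0.50 over the omissions of wild type replicates 1, 2 and 3. With Hmox1 counted, the list held 4 tested genes, of which 1 fell, Hmox1 itself, and 0 rose. Over all tested genes 0.177% fell and 0.427% rose. The median difference of the list, again with Hmox1, was −0.47 against 0.02 over all tested genes.

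Macrophages that clear red cells are a known source of Hmox1, and their markers were read beside it, although the lineage negative sort is meant to remove mature cells, of the red cell line too. Of 14 markers, 6 were tested and 0 passed limma over all genes, with a median difference of −0.15. At an unadjusted limma p under 0.05 stood 2, both lower, against 9.58% of tested genes (3.84% lower). Cd5l, a secreted macrophage protein, read −1.19 ± 0.29 (SE; limma adjusted p = 0.164); its 4 values above the array median were all wild type, so it passed the filter through wild type alone. The other was Vcam1, an adhesion molecule of marrow macrophages, at −0.87 ± 0.27 (limma adjusted p = 0.317). The markers of highest mean value were Csf1r, the receptor for macrophage colony-stimulating factor, at 0.96 ± 0.60 (limma adjusted p = 0.676) and the haemoglobin scavenger receptor Cd163 at −0.46 ± 0.36 (limma adjusted p = 0.753). Cd163 read 9.01 in FLT3-ITD replicate 1 and 7.36 to 7.46 in the other 3, and without that array, its difference was −0.86 (limma adjusted p = 0.111). The mean level over the 14 markers ranged from 6.04 to 6.29 in wild type and from 5.74 to 6.12 in FLT3-ITD. Of the untested markers, Adgre1, Mertk and Clec4f lay above the array median on 0 arrays and differed by 0.27, 0.06 and 0.09. C1qa and C1qb lay above it on 2 arrays and differed by −0.43 and −1.53. C1qc, Spic and Fcgr1 lay above it on 1 and differed by −0.11, −0.23 and −0.38. The part of such cells in the Hmox1 difference was not tested. In RNA from sorted populations, fewer cells of a type and less RNA per cell cannot be told apart.

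Both forms of the entry enzyme separated the genotypes, in opposite directions. Alas1 did not pass among the tested genes. Alas2 was not among these, and its probe set did not pass among all probe sets. Alas1, the housekeeping form, read 6.80, 7.02, 6.79 and 7.23 in wild type replicates 1, 2, 3 and 037 and 7.72, 8.03, 7.48 and 8.13 in FLT3-ITD on probe set 1424126_at. All FLT3-ITD values lay above all wild type values. The difference was 0.88 ± 0.18 (SE), or 1.84-fold higher in FLT3-ITD, with a limma adjusted p of 0.101 and an exact permutation p of 0.0286. The other probe set, 1455282_x_at, of a type open to cross-hybridisation, read 6.58 to 6.95 in wild type and 7.19 to 7.83 in FLT3-ITD, again without overlap, a difference of 0.73 ± 0.19 (SE; limma adjusted p = 0.303 among all probe sets). Over 19 alternatives the first of these differences ranged from 0.79 to 1.00 and its limma adjusted p from 0.0781 to 0.338.

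Alas2, the erythroid form, is read by 1 probe set, 1451675_a_at, close to the array median. It read 5.78, 6.27, 6.66 and 6.25 in wild type replicates 1, 2, 3 and 037 and 5.63, 5.06, 5.64 and 5.51 in FLT3-ITD. The genotypes did not overlap, although wild type replicate 1 lay only slightly above the highest FLT3-ITD value, 5.64. The difference was −0.78 ± 0.21 (SE; limma adjusted p = 0.325 among all probe sets; exact permutation p = 0.0286). Without FLT3-ITD replicates 1 and 037 it was −0.89 (limma adjusted p = 0.541). Within each array, Alas1 minus Alas2 was 1.02, 0.75, 0.12 and 0.98 in wild type and 2.10, 2.98, 1.84 and 2.63 in FLT3-ITD, in the same order. The means of this log2 ratio lay 1.66 apart. It is given as a description with no test, since it was chosen after both genes were seen to separate the genotypes in opposite directions, and all 4 FLT3-ITD values of Alas2 lay below the array median.

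The stretches before the starts of Alas1 and Alas2 are shown because the pair differed in opposite directions. They are the 250 bases upstream of an annotated start, from RefSeq on GRCm38.p6, read on the gene's strand, with capitals for matches on either strand to AGATAA or to its variants AGATAG and also TGATAA as well as TGATAG, letters bound by GATA factors, or to CACCC, letters bound by erythroid KLF factors. The first Alas1 stretch, chr9:106247955-106248204 on the minus strand, precedes the outermost start, and the other, chr9:106247731-106247980, an inner start. The Alas2 stretch is chrX:150547167-150547416 on the plus strand.
Alas1 outer start: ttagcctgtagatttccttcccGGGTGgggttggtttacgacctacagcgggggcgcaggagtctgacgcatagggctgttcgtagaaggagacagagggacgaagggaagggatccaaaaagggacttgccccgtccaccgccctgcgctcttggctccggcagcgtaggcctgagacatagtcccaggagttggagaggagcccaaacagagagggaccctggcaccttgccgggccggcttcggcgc
Alas1 inner start: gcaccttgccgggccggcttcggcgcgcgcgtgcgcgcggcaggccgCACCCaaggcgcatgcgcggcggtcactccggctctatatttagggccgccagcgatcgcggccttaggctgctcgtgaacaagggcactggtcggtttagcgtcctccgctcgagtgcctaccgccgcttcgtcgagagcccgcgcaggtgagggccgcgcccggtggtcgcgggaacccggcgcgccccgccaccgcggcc
Alas2: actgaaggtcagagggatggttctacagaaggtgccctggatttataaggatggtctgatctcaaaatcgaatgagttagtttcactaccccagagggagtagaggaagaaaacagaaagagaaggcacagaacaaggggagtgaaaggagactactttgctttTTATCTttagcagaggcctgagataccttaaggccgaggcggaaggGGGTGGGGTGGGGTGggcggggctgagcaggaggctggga
Alas2 held 1 GATA match, which begins 86 bases before the start, and 3 CACCC matches laid end to end. Each Alas1 stretch held 1 CACCC match and 0 GATA matches. Over all 32851 such stretches in the table, 26.5% held a GATA match and 52.0% a CACCC match. Stretches were read for 7 of the 9 genes, 10 in all, and none for Fech or Hmox1, which the counts leave out. Of the 10 stretches, 3 held a GATA match and 5 a CACCC match, near the shares over all stretches. The GATA matches lay in 3 genes, Alas2, Uros (2 matches at its inner start) and Cpox (2 matches). A match is a match of letters and says nothing of binding in these cells.

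Cpox and Uros, the other genes with GATA matches, did not pass. Cpox, coproporphyrinogen oxidase, read 6.39, 6.81, 6.99 and 6.66 in wild type and 6.35, 6.66, 7.18 and 6.66 in FLT3-ITD on probe set 1422492_at, in the order 1, 2, 3 and 037. The difference was 0.00 ± 0.20 (SE; limma adjusted p = 0.998), with a 95% interval from −0.46 to 0.46, and it ranged from −0.15 to 0.12 when single arrays were left out. Its other probe sets differed by 0.20 ± 0.18 and −0.30 ± 0.20, the latter dim on all 8 arrays. Uros, uroporphyrinogen III synthase, read 4.90, 6.48, 6.04 and 7.06 in wild type and 6.57, 6.61, 6.84 and 6.67 in FLT3-ITD. Wild type was far more spread (SD 0.91 against 0.12), and the difference of 0.55 ± 0.39 (SE; limma adjusted p = 0.729) was 0.15 without wild type replicate 1 and 0.87 without wild type replicate 037. Its other probe set, 1440535_at, lay above the array median on 0 arrays and differed by −0.03 ± 0.13.

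Of the cytosolic enzymes, Alad, which joins aminolevulinic acid into porphobilinogen, read 7.76 to 8.10 in wild type and 7.45 to 8.03 in FLT3-ITD on 1424877_a_at. The difference was −0.19 ± 0.15 (SE; limma adjusted p = 0.760; 95% interval −0.54 to 0.16), and the dim second probe set differed by −0.04 ± 0.26. Urod, uroporphyrinogen decarboxylase, was 9.30 to 9.68 in wild type and 8.73 to 9.66 in FLT3-ITD on 1443849_x_at, where FLT3-ITD replicate 2 was the low value. This probe set, too, is of a type open to cross-hybridisation. The difference was −0.20 ± 0.21 (SE; limma adjusted p = 0.824; 95% interval −0.68 to 0.28), and 1417206_at gave −0.10 ± 0.13. Both sizes hung on single arrays: without FLT3-ITD replicate 2 the Alad difference was −0.094 and that of Urod −0.0097, and without FLT3-ITD replicates 1 and 037 they were −0.33 and −0.52 (limma adjusted p = 0.759 and 0.560). For Urod, omitting FLT3-ITD replicate 037 gave −0.32, and omitting wild type replicate 3 gave −0.13.

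The closing steps in the mitochondrion did not pass either. Ppox, protoporphyrinogen oxidase, differed by −0.16 ± 0.13 (SE; limma adjusted p = 0.771; 95% interval −0.46 to 0.14) on 1416618_at, and by −0.072 without FLT3-ITD replicate 2. Its probe set 1448065_at read 6.09, 6.62, 6.20 and 6.31 in wild type and 5.72, 5.95, 5.49 and 6.13 in FLT3-ITD, in the order 1, 2, 3 and 037. FLT3-ITD replicate 037 there lay within the wild type range, and the difference was −0.48 ± 0.17 (SE; limma adjusted p = 0.521 among all probe sets). The third Ppox probe set was dim and differed by −0.04 ± 0.14. Fech, ferrochelatase, which puts iron into the ring, read 8.22, 7.59, 7.66 and 8.00 in wild type and 7.82, 7.49, 7.11 and 7.83 in FLT3-ITD on 1418699_s_at, a difference of −0.31 ± 0.21 (SE; limma adjusted p = 0.717). Its other probe sets varied in sign with wide errors, at −0.62 ± 0.29 on 1418698_a_at, −0.15 ± 0.56 on 1427696_at and 0.23 ± 0.39 on 1449181_at. Of these, 1427696_at was above the array median on 1 array and 1449181_at on 4. The 1418699_s_at difference was −0.57 with FLT3-ITD replicates 1 and 037 both left out (limma adjusted p = 0.622), −0.16 with FLT3-ITD replicate 3 left out and −0.19 with wild type replicate 1 left out.

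Over the 20 probe sets, 14 exceeded the array median on 4 or more arrays and 0 passed limma among all probe sets. At an unadjusted p under 0.05 stood 5, against 8.03% of all single-gene probe sets. These were both of Alas1, those of Alas2 and Hmox1, and 1448065_at of Ppox. The genotypes did not overlap in 4, against 5.24%, the same without that of Ppox. Probe sets of 1 gene share their samples and transcript and are not independent. Over the 7 tested synthesis genes, 0 passed, 3 differences were positive and 4 negative, and the median was −0.16 against 0.02 over all tested genes.

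**Figure D2:**
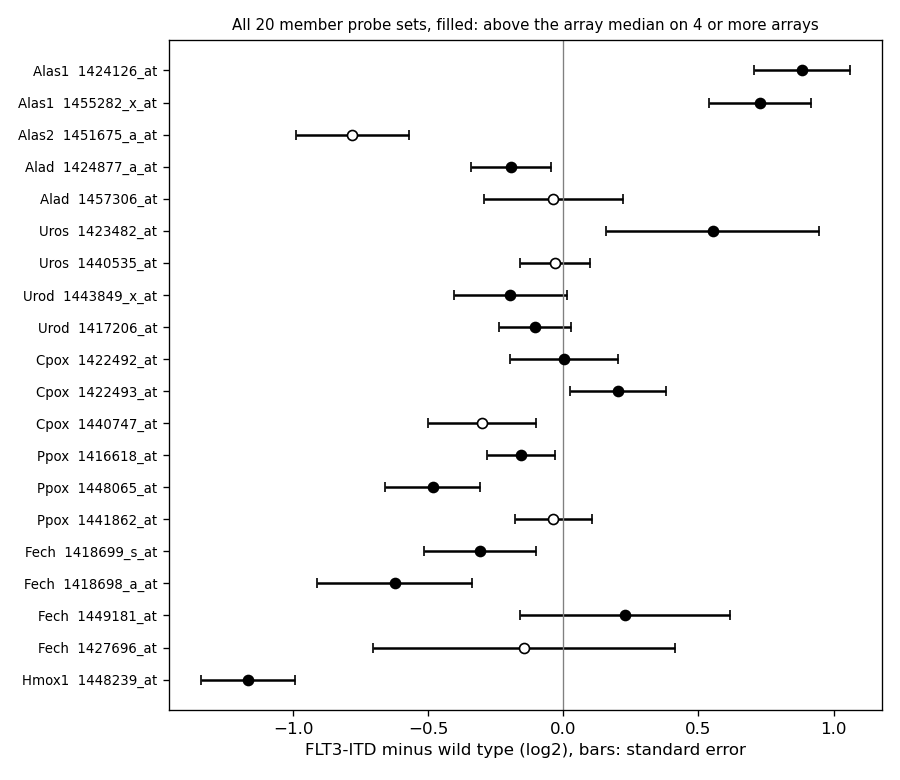
Difference FLT3-ITD minus wild type (log2) for each of the 20 probe sets, with its standard error from the fit over all single-gene probe sets. Filled points lay above the array median on 4 or more arrays. Both Alas1 probe sets stand to the right, at 0.88 and 0.73, Alas2 and Hmox1 to the left, at −0.78 and −1.17, and the others between −0.62 and 0.55.

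Several genes of red cells, where most heme goes into haemoglobin, fell in the same samples. Of 21 red cell markers 8 were tested, all 8 had negative differences, and 4 fell, with a median of −0.85. Over all 10762 tested genes, 0.177% fell, 4982 differences were negative and the median was 0.02. The log2 difference of the beta globin Hbb-b2 was −2.76 ± 0.31 (SE; limma adjusted p = 0.00576). For Slc4a1, which exchanges anions across the red cell membrane, it was −2.10 ± 0.34 (limma adjusted p = 0.0336). Hemgn, a nuclear protein of erythroid cells, stood at −1.52 ± 0.24 (limma adjusted p = 0.0286), and the carbonic anhydrase gene Car2 at −1.01 ± 0.17 (limma adjusted p = 0.0449). Hba-a2, an alpha globin, differed by −0.37 ± 0.18 (limma adjusted p = 0.577). The Hbb-b2 call held in 8 of 8 omissions of a single array and was lost with FLT3-ITD replicates 1 and 037 both left out (−2.57, limma adjusted p = 0.0581). Averaging its probe sets gave a difference of −1.45. Among single omissions, the Hemgn call held only without FLT3-ITD replicate 1 or 037, that of Slc4a1 only without wild type replicate 3 or FLT3-ITD replicate 3, and that of Car2 only without wild type replicate 1. The Hemgn call also held with both FLT3-ITD arrays 1 and 037 omitted (limma adjusted p = 0.0270), and those of Slc4a1 and Car2 did not (0.221 and 0.152). With replicates 1 and 037 averaged those of Slc4a1 and Car2 were lost too (limma adjusted p = 0.118 and 0.0698). Over the 8 omissions these 3 differences ranged from −1.71 to −1.32, −2.37 to −1.86 and −1.11 to −0.88. Slc4a1 was above the array median on 4 arrays, all wild type, and so passed the filter through wild type alone. The mean level over the 15 markers with a probe set was 6.60 to 6.90 in wild type and 5.995 to 6.206 in FLT3-ITD. The part of red cell RNA in the lower Alas2 reading was not tested.

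Factors that drive erythroid heme synthesis did not pass. Of 10 listed, 8 were tested, 0 passed, 3 differences were positive and 5 negative, and the median was −0.03. Lmo2, a bridge in the GATA and SCL complex, read −0.40 ± 0.12 (SE; limma adjusted p = 0.319) and Gata2, a factor of early progenitors, −0.48 ± 0.17 (limma adjusted p = 0.417), each without overlap between genotypes. Ldb1, at −0.40 ± 0.17 (limma adjusted p = 0.509), did not overlap either. Tal1 did not overlap in the other direction, at 0.30 ± 0.14 (limma adjusted p = 0.561). Over all tested genes, 6.22% did not overlap (3.77% higher, 2.44% lower). Gata1, the erythroid GATA factor, lay above the array median on 0 arrays, with means of 4.59 (wild type) and 4.53 (FLT3-ITD). Klf1, the erythroid CACCC-binding factor, read 5.89 ± 0.70 and 5.87 ± 0.97 (SD, n = 4 each).

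Among regulators and companions of Hmox1, 12 of 14 were tested and 0 passed, with 4 positive and 8 negative differences and a median of −0.24. Bach1, the repressor of Hmox1 that heme displaces, differed by −0.31 ± 0.22 (SE; limma adjusted p = 0.726), and Nfe2l2, which encodes the activator NRF2, by −0.26 ± 0.20 (limma adjusted p = 0.739), both named after their values were seen. Bach2, the lymphoid relative of Bach1, read −0.84 ± 0.26 (limma adjusted p = 0.315), against −0.06 when its probe sets were averaged. Mafk, a small MAF partner of these factors, read −0.46 ± 0.20 (limma adjusted p = 0.521). Without FLT3-ITD replicates 1 and 037 the Bach2 difference was −0.42 and that of Mafk −0.24.

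Carriers of heme, its precursors and iron gave 0 called genes of 14 tested, with 8 positive and 6 negative differences and a median of 0.10. Tmem14c, which helps porphyrin precursors across the inner mitochondrial membrane, read 7.65, 7.84, 8.06 and 7.67 in wild type and 8.42, 8.38, 8.52 and 8.31 in FLT3-ITD, in the order 1, 2, 3 and 037. All FLT3-ITD values were above all wild type values, and the difference of 0.60 ± 0.13 (SE) did not pass (limma adjusted p = 0.130). Abcg2, a pump of porphyrins and of stem cells, read −0.65 ± 0.22 (limma adjusted p = 0.379), and −0.39 without FLT3-ITD replicates 1 and 037. Genes of iron uptake, storage and iron-sulphur clusters gave 0 called of 14 tested, with 7 positive and 7 negative differences and a median of −0.01. Nfs1, the cysteine desulfurase of cluster assembly, read −0.50 ± 0.19 (limma adjusted p = 0.450), and 0.49 on its most variable probe set. Isca1, a cluster carrier, read −0.77 ± 0.35 (limma adjusted p = 0.552), and −0.28 without FLT3-ITD replicates 1 and 037.

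**Figure D3:**
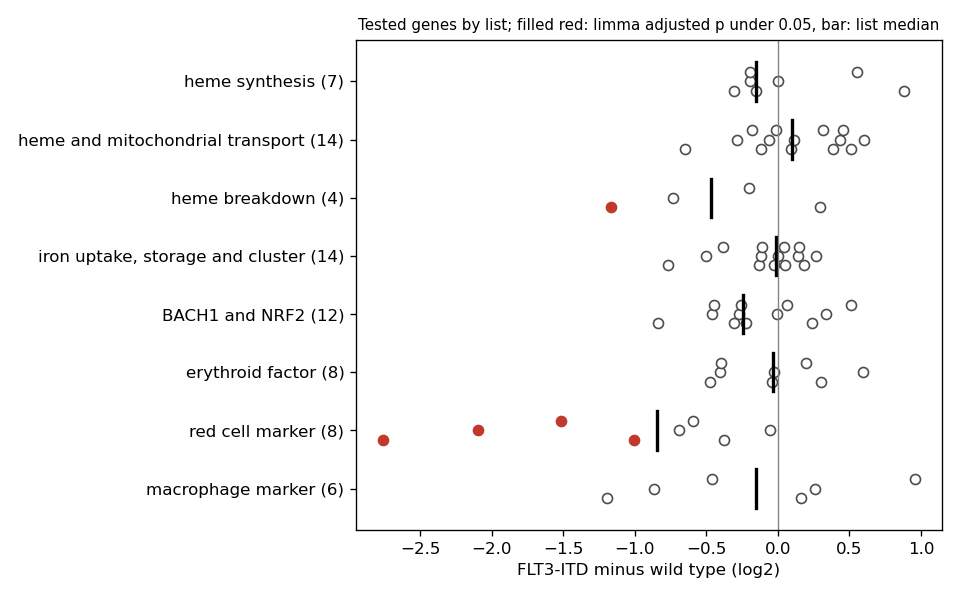
Difference FLT3-ITD minus wild type (log2) of every tested gene in the 8 lists, with the number tested in brackets and a bar at the list median. Filled red points passed limma at an adjusted p under 0.05: Hmox1 in heme breakdown, and 4 red cell genes between −2.76 and −1.01.

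The adjusted p of Hmox1 and Alas1 was followed over the alternatives. Hmox1 passed in 11 of the 18 alternatives in which it was tested, and was lost with the replicate block, with 5 of the 8 single arrays left out and with both FLT3-ITD arrays that stand apart left out. Alas1 passed in 0 of 19.

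**Figure D4:**
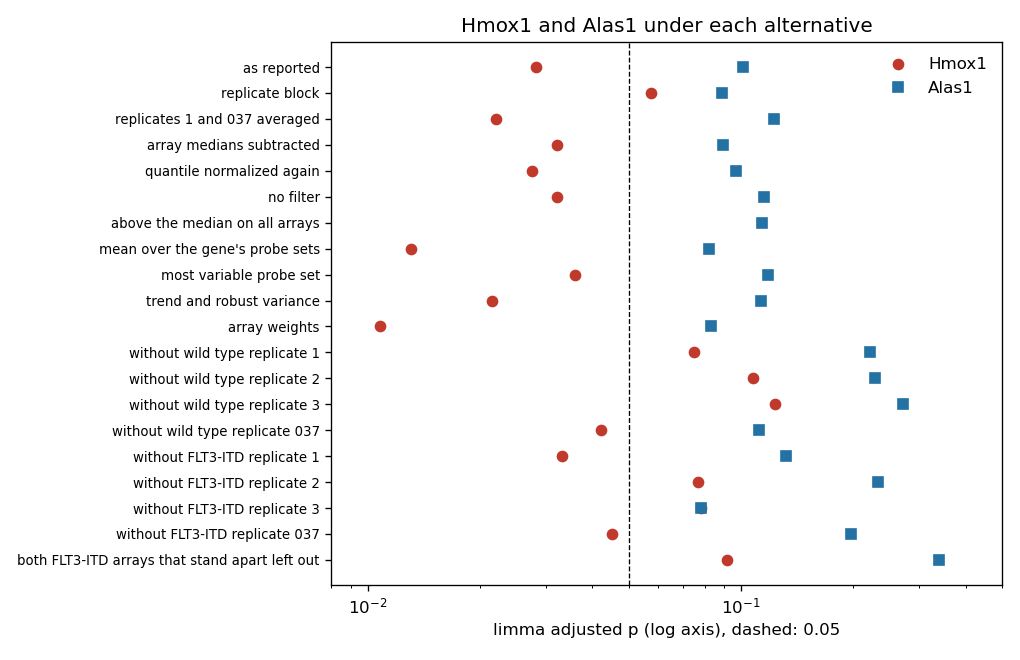
Limma adjusted p, on a log axis, of the FLT3-ITD difference of Hmox1 (circles) and Alas1 (squares) as reported and under each alternative, with the threshold of 0.05 dashed. Hmox1 points lie between 0.0108 and 0.123, on both sides of the line, and no Alas1 point lies left of it; Hmox1 has no point where a gene had to lie above the median on all arrays, and both points coincide without FLT3-ITD replicate 3.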

How the data were processed

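The authors' deposited series matrix holds log2 expression values per probe set, made with RMA per the submitters' processing notes; which RMA version is not given here. Probe sets were named through the platform annotation, with symbols updated to RefSeq: of 45101 probe sets, 34945 had 1 gene, 932 several and 9160 none, and 64 controls were left out. With limma 3.58.1 in R 4.3.3 (lmFit, eBayes, Benjamini-Hochberg), 10762 genes were fitted, each by its probe set of highest mean if above the array median on at least 4 of 8 arrays; a second fit took all single-gene probe sets with no filter. Exact two-sided permutation tests used all 70 assignments of arrays. The number of arrays limits the precision. The fit was run on data simulated with independent noise and known changes. These data held no repeated or outlying arrays, so the run does not bear on those limits. Figures were drawn with matplotlib 3.10.9.

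The 9 genes and the lists were chosen with earlier results of these data known. Named from each list were the called genes, up to 4, or else the 2 of smallest p, and for red cell and macrophage markers also the 2 of highest mean. Hmox2, Blvra, Blvrb, Gata1, Klf1, Ldb1, Tal1, Bach1, Nfe2l2 and the untested markers were named outside that rule, after their values were seen. Alternatives were the replicate block, averaging replicates 1 and 037, other scalings, filters, probe set choices and variance models, and leaving out single arrays; leaving out FLT3-ITD replicates 1 and 037 together was added after seeing the data.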

Additional observations from a re-analysis of the deposited data

Results flagged for a closer look

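Of 94 groups of 4 arrays examined for a sample far from the others, 3 had one, where chance gives about 1 in 20. Car2 in FLT3-ITD replicate 2 read 9.76 against 10.23 to 10.31 in the other FLT3-ITD arrays. Cd163 in FLT3-ITD replicate 1 read 9.01 against 7.36 to 7.46 in the others. The mean level of the iron list in wild type replicate 037 was 8.36 against 8.47 to 8.48 in the others. No value of Alas1, Alas2, Hmox1 or another of the 9 genes was among the 3.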

How the results depend on the processing

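As reported, 65 genes and 55 probe sets passed. The replicate number as a block gave 22 genes, 26 probe sets and 0 of the heme genes, with Hmox1 at −1.17 (limma adjusted p = 0.0572). Under this block Hbb-b2 passed (limma adjusted p = 0.0184), and Hemgn, Slc4a1 and Car2 did not (0.0809, 0.178 and 0.194). The numbers were not taken as pairs in the main fit. Deviations of same-numbered arrays correlated at 0.027, 0.037, 0.065 and 0.110, all positive, and 3 of 4 wild type arrays correlated best with their own number. These values do not settle whether the arrays are paired. Averaging replicates 1 and 037 gave 83 probe sets and array weights 106; in each, and with probe sets filtered, 1 heme gene probe set passed, that of Hmox1. A filter on all arrays gave 25 genes and 0 heme genes, but Hmox1, above the median on 4 arrays, was not tested there. Leaving out FLT3-ITD replicates 1 and 037 gave 31 genes and 0 heme genes, with Hmox1 at −1.08 (limma adjusted p = 0.0920). Leaving out single arrays gave 30 to 59 genes, 24 to 65 probe sets and 0 to 1 heme genes, with Hmox1 from −1.26 to −1.03. The sign turned for Nfs1 on its most variable probe set (0.49) and for Ppox 1441862_at with replicates 1 and 037 averaged (0.024). It also turned within the ranges over single omissions of Alad 1457306_at (−0.23 to 0.14), Cpox (−0.15 to 0.12), Fech 1427696_at (−0.51 to 0.36), Fech 1449181_at (−0.028 to 0.44), Ppox 1441862_at (−0.11 to 0.038) and Uros 1440535_at (−0.094 to 0.052). Of 347 alternative values for the 9 genes, 323 kept direction and side of the threshold, and in 14 the sign turned. Hmox1 lost its gene call in 7 and gained a call among all probe sets in 3. No other of the 9 genes was called in any alternative, so the total says little of how firm the Hmox1 call is. Beyond the fewer arrays or genes some alternatives hold, the cause was not tested. Dim probe sets limit what can be read for Alas2 and for Hmox1 in FLT3-ITD.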

Other observations

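The 3 tested genes whose values over the 8 arrays were most like those of Alas2 were Zfp46 (Pearson r = 0.967), Hhex (0.950) and Pacc1 (0.948). Those most like Hmox1 were Xist (0.972), Dcun1d1 (0.963) and Flt3 (0.960). These are descriptions over arrays that share their genotype difference, with no test. Flt3, the gene that carries the duplication, was itself lower in FLT3-ITD, by −1.17 (limma adjusted p = 0.0406). Among markers that did not pass the filter, 2 were chosen after their values were seen, as large falls. The iron exporter Slc40a1 had means of 6.22 ± 0.70 (wild type) and 5.16 ± 0.37 (FLT3-ITD; SD, n = 4 each). The complement gene C1qb had 5.69 ± 1.44 and 4.16 ± 0.31. The genotypes overlapped in both. Other untested markers differed less or rose, such as C1qc at −0.11 and Adgre1 at 0.27.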
